A study of Danio rerio with 6 samples.

Results

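EWSR1 and TAF15 are RNA-binding proteins of the FET family, and zebrafish carry a pair of EWSR1 genes, ewsr1a and ewsr1b. The genes described are the rows of the deposited count tables whose symbol is ewsr1a, ewsr1b or TAF15, which gave 3 genes of 31452 listed. All 3 passed the filter on low counts that left 17557 genes for testing. TAF15 is the spelling of the tables for the zebrafish gene taf15.

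FET proteins join a low-complexity amino-terminal region, rich in serine, tyrosine, glycine and glutamine, to an RNA recognition motif, a zinc finger and arginine-glycine repeats. They bind nascent transcripts, contact RNA polymerase II and the U1 small nuclear ribonucleoprotein, and act in transcription, splicing and DNA repair. In Ewing sarcoma the amino-terminal region of EWSR1 is fused to the DNA-binding domain of an ETS factor such as ERG or FLI1. The transgenic fish of this study carried such a fusion beside their own intact FET genes. The counts of those genes in whole embryos are compared here with the counts in siblings that did not express the fusion.

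RNA was sequenced from 6 pools of whole zebrafish embryos at 3 days post fertilisation, each of 15 embryos. In 3 pools the embryos combined the transgene Tg(14xUAS:GFP-EWSR1-ERG) with the driver line Et(E1b:Gal4-VP16)s1101t and the reporter Tg(UAS:Kaede) s1999t, and made the human fusion protein tagged with GFP in neurons. The other 3 pools were wild-type siblings that did not express it, and the labels leave out whether these carried the driver or the reporter, which is not stated in the sources used here. Nothing in the labels says whether the pools came from separate clutches, so the p-values rest on the spread between these pools only. For the edgeR test, the spread of a gene was estimated in part from other genes. The whole embryo was homogenised, and a change limited to neurons is averaged with the RNA of all other cells. In such samples, fewer cells of a type and less RNA per cell cannot be told apart. The tables list zebrafish genes only, so the transgene was not measured here, and whether any of its reads were assigned to ewsr1a or ewsr1b was not tested.

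Library totals ran from 4771843 to 13338802 counts, the highest being EWSR1-ERG replicate 3, whose file name gives another sequencing lane than the other 5. Mitochondrially encoded genes held 4.08% ± 0.243 of wild-type counts, against 2.82% ± 0.175 with EWSR1-ERG (SD, n = 3 per group; exact permutation p = 0.1, the smallest that 3 pools against 3 allow). Levels are given as CPM, a gene's count over the total of its library on a fixed common scale, with totals adjusted by the TMM method (trimmed mean of M values). No transcript lengths were used, so CPM compare pools for 1 gene and do not rank the genes against each other.

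None of ewsr1a, ewsr1b and TAF15 was called different between embryos with neuronal EWSR1-ERG and their wild-type siblings. The fitted change was an increase of 4.80% for ewsr1a, 5.96% for ewsr1b and 9.12% for TAF15. A gene was called where the Benjamini-Hochberg adjusted p of edgeR's quasi-likelihood test, taken over all tested genes, was under 0.05, which held for 17.3% of the 17557 genes (1308 higher, 1732 lower). Of these genes 0 of 3 were called, 0 of 3 had an unadjusted p under 0.05, as 30.1% of all tested genes did, and DESeq2 and limma-voom also called 0 of 3. The CPM of the groups overlapped for all 3, whereas 35.1% of the tested genes had groups that did not overlap. Over all genes, leaving out wild-type replicate 1 gave 718 higher and 1135 lower calls, and leaving out wild-type replicate 2 gave 645 higher and 981 lower.

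The gene ewsr1a (ENSDARG00000020258, chromosome 10 of the Zv9 build) is one of the EWSR1 orthologs. It had 1019, 808 and 723 counts in wild-type replicates 1 to 3, which is 171.7, 156 and 163 CPM. In EWSR1-ERG replicates 1 to 3 it had 1070, 909 and 2505 counts, or 163, 158 and 191 CPM. EWSR1-ERG replicate 3 was the highest pool, and the other EWSR1-ERG pools lay within the wild-type range. The means were 163 ± 8.07 CPM in wild-type and 171 ± 17.9 CPM with EWSR1-ERG (SD, n = 3 per group), with a log2 fold change of 0.07 (SE 0.109, edgeR adjusted p = 0.734) and a 95% interval from -0.17 to 0.30. Without EWSR1-ERG replicate 3, the deepest library, the log2 fold change was -0.02 (adjusted p = 0.929).

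Its paralog ewsr1b (ENSDARG00000020465, chromosome 5) had 634, 590 and 517 counts in the wild-type pools, or 107, 114 and 116 CPM. In the EWSR1-ERG pools it had 757, 668 and 1631 counts, or 115, 116 and 125 CPM. The groups overlapped, with EWSR1-ERG replicate 1 below wild-type replicate 3. Means of 112 ± 4.85 and 119 ± 5.10 CPM (SD, n = 3 per group) gave a log2 fold change of 0.08 (SE 0.0990, edgeR adjusted p = 0.628), with a 95% interval from -0.13 to 0.30.

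TAF15 (ENSDARG00000070019, chromosome 15) encodes the member first described as a factor associated with the TATA-binding protein. Its counts were 698, 597 and 559 in wild-type pools, or 118, 115 and 126 CPM. They were 882, 718 and 1718 in EWSR1-ERG pools, or 134, 125 and 131 CPM. The groups met only at their edges, where EWSR1-ERG replicate 2 lay just below wild-type replicate 3. Means were 119 ± 5.56 and 130.2 ± 4.77 CPM (SD, n = 3 per group), a log2 fold change of 0.13 (SE 0.0988, edgeR adjusted p = 0.439) with a 95% interval from -0.09 to 0.34.

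**Figure D1:**
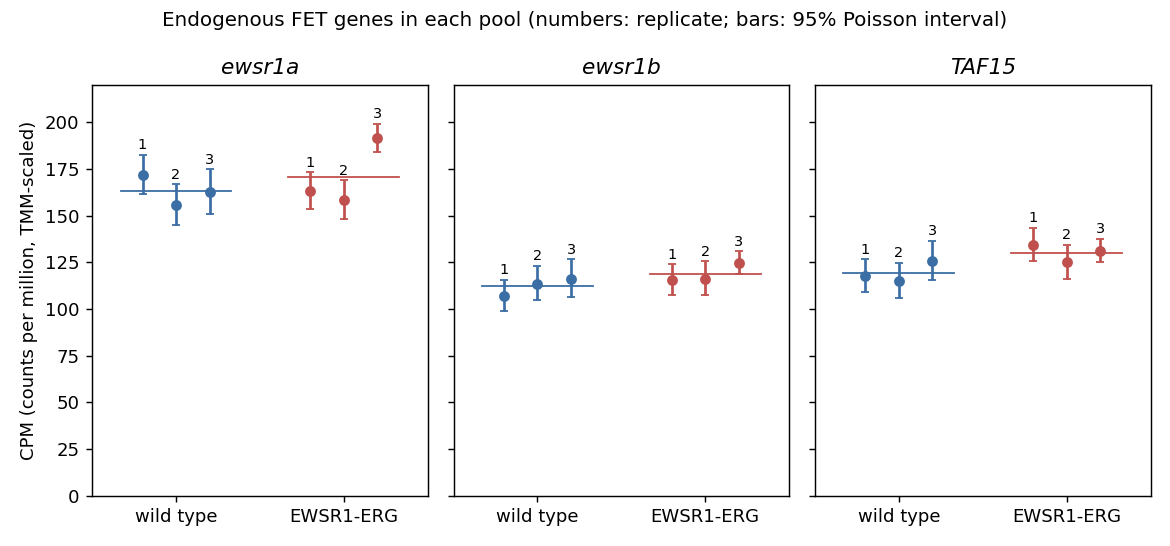
Levels of ewsr1a, ewsr1b and TAF15 in TMM-scaled CPM (linear axis from 0) in the 3 wild-type and 3 EWSR1-ERG pools, with the replicate number above each point, 95% Poisson intervals of the count as bars and group means as lines. The groups overlap for all 3 genes, and EWSR1-ERG replicate 3 is the highest pool for ewsr1a (191 CPM) and ewsr1b (125 CPM); heights are not comparable between genes.

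The data therefore bound the change more closely than for most genes. Over the 3 genes the 95% intervals ran from a log2 fold change of -0.17 to one of 0.34, which is 0.891-fold to 1.26-fold of the wild-type level. The lowest bound, a decrease of 10.9% (-10.9%), was that of ewsr1a, and the highest, an increase of 26.4%, was that of TAF15. The half-width of these intervals was between 0.21 and 0.23 on the log2 scale, against a median of 0.39 over all tested genes. Of the tested genes 93.5% had a wider interval than any of the 3. This comparison was not limited to genes of similar mean CPM. For example, intervals of similar width ran from -0.17 to 0.26 for tardbp and from -0.04 to 0.41 for prmt1. Their wild-type means were 146 and 161 CPM. Whole intervals lay beyond those bounds, above 0.34 or below -0.17, in 14.1% of the tested genes. Over the alternative settings and with each pool left out in turn, the outermost bounds were 0.822-fold and 1.33-fold. A change of 1.5-fold in either direction was thus outside every interval computed for these genes in the whole embryo. An adjusted p above the threshold does not show that the levels were equal, and smaller changes lie within the intervals.

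**Figure D2:**
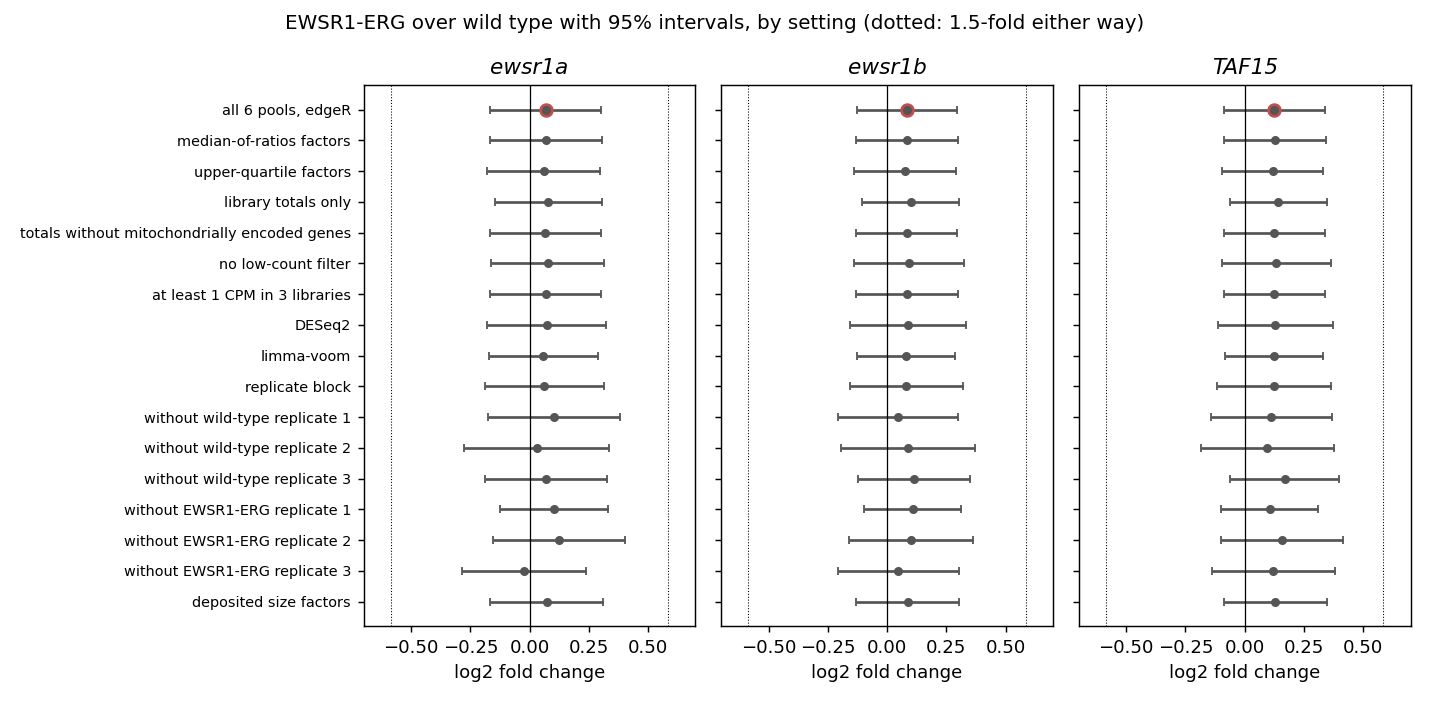
Log2 fold change of ewsr1a, ewsr1b and TAF15, EWSR1-ERG over wild type, with its 95% interval, for all 6 pools by edgeR (top, red) and for 16 other settings, among them each pool left out in turn. The dotted lines mark 1.5-fold in either direction, which no interval reaches, and the points lie between -0.02 and 0.17.

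The spread of each gene over the pools is given as a description, with no test between genes. The coefficient of variation over all 6 pools was 4.94% for ewsr1b, 6.02% for TAF15 and 7.84% for ewsr1a. Set beside genes of similar mean CPM to each, 94.6% varied more than ewsr1b, 90.7% more than TAF15 and 79.7% more than ewsr1a. The 6 pools span both groups, so a gene that differed between the groups varied more by this measure. The value for ewsr1a rested on EWSR1-ERG replicate 3: without that pool the coefficients were 3.77% for ewsr1a, 3.49% for ewsr1b and 6.17% for TAF15, in another order.

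The balance between the paralogs can be read from their counts in the same library, where the scaling of libraries cancels. The share of ewsr1a in the ewsr1a and ewsr1b counts was 61.6% (exact binomial 95% interval 59.3% to 64.0%), 57.8% (55.2% to 60.4%) and 58.3% (55.5% to 61.1%) in wild-type replicates 1 to 3. In EWSR1-ERG replicates 1 to 3 it was 58.6% (56.3% to 60.8%), 57.6% (55.2% to 60.1%) and 60.6% (59.1% to 62.1%). The highest share was in a wild-type pool and the lowest in an EWSR1-ERG pool, and all 6 intervals shared the range from 59.3% to 60.1%. These intervals cover counting error only.

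The count ratio of ewsr1a to ewsr1b was 1.46 ± 0.130 in wild-type and 1.44 ± 0.0898 with EWSR1-ERG (SD, n = 3 per group). The log2 ratio differed by -0.02 between the groups (two-sided exact permutation p = 0.8, n = 3 per group, where no p below 0.1 is possible). Its direction turned without wild-type replicate 1 (0.05) and without EWSR1-ERG replicate 2 (0.02). The ratio compares pools and does not say which paralog is more abundant, since it is not corrected for transcript length. Reads that match both paralogs could be split between them, depending on a counting step not given in the sources used here.

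**Figure D3:**
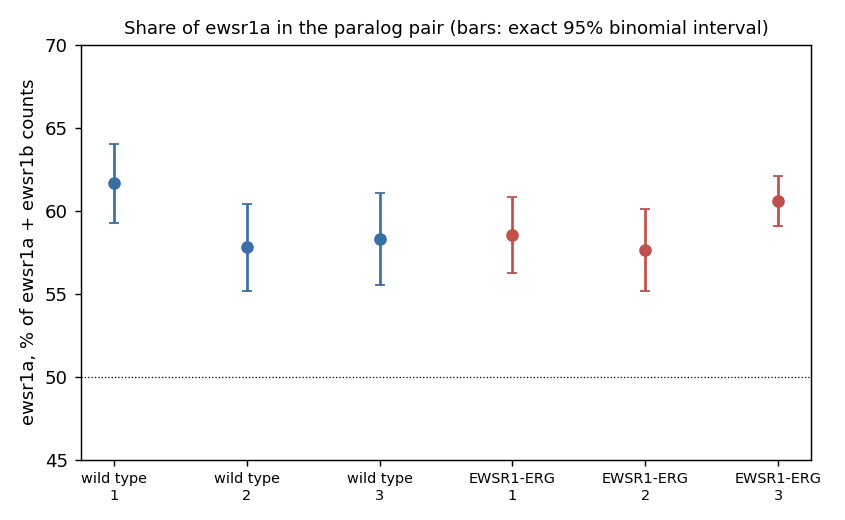
Share of ewsr1a in the summed ewsr1a and ewsr1b counts of each pool in percent (the axis does not start at 0), with exact 95% binomial intervals and a dotted line at 50%. Shares lie between 57.6% and 61.6%, with both groups over the same range.

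Summed over the pair, ewsr1a and ewsr1b stood at 279, 269 and 279 CPM in wild-type and at 278, 275 and 316 CPM with EWSR1-ERG. The groups overlapped, and only EWSR1-ERG replicate 3 lay above all wild-type pools. Their means were 276 ± 5.42 and 290 ± 22.9 CPM (SD, n = 3 per group; log2 difference 0.07, two-sided exact permutation p = 0.6). Without EWSR1-ERG replicate 3 the log2 difference was 0.0064 (exact permutation p = 0.9), and without EWSR1-ERG replicate 2 it was 0.11 (p = 0.1, the smallest that 3 pools against 2 allow, by exact permutation).

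FET proteins work with other RNA-binding proteins, splicing factors, modifying enzymes and the transcription machinery, and 7 lists of such partners held 114 tested genes of 115 matched. Of these, 3 rose and 2 fell with EWSR1-ERG, with a median log2 fold change of 0.06, beside 7.45% higher, 9.87% lower and a median of 0.00453 over all tested genes. The median over ewsr1a, ewsr1b and TAF15 was 0.08. Called partner genes numbered 1 by DESeq2 and 3 by limma-voom. They numbered 1 with library totals as the only scaling, 1 without wild-type replicate 1, 1 without wild-type replicate 2, 2 without wild-type replicate 3, 3 without EWSR1-ERG replicate 1, 2 without EWSR1-ERG replicate 2 and 2 without EWSR1-ERG replicate 3.

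The partner gene with the clearest change was smn1. Its product assembles small nuclear ribonucleoproteins as the core of the SMN complex and is deficient in human spinal muscular atrophy. The gene smn1 had 37, 43 and 32 counts in wild-type pools, or 6.23, 8.28 and 7.19 CPM. In EWSR1-ERG pools it had 91, 85 and 148 counts, or 13.9, 14.8 and 11.3 CPM. Every EWSR1-ERG pool lay above every wild-type pool, as for 17.1% of all tested genes. The level of smn1 rose from a mean of 7.24 ± 1.02 CPM to one of 13.3 ± 1.81 (SD, n = 3 per group; log2 fold change 0.86, SE 0.192, edgeR adjusted p = 0.00672). Its call held in all 16 alternative settings. It was the only one of 9 tested SMN complex genes that was called, beside 17.3% of all tested genes. Of the 9, 2 had an unadjusted p under 0.05, as did 30.1% of all tested genes. The median log2 fold change of the 9 was 0.21, with fitted values from 0.0063 to 0.86.

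Nuclear import and arginine methylation govern where FET proteins reside. Of 9 tested genes of these steps 1 rose and 1 fell, beside 7.45% higher and 9.87% lower over all tested genes. The median log2 fold change of the 9 was 0.08, and -5.1e-05 without EWSR1-ERG replicate 1. The transportin gene tnpo2, an import receptor of the kind that carries FET proteins into the nucleus, stood at 55.8, 53.0 and 49.0 CPM in wild-type and at 76.5, 69.0 and 61.2 CPM with EWSR1-ERG. It rose by 0.38 on the log2 scale (SE 0.115, edgeR adjusted p = 0.0337), with no overlap between the groups, as for 35.1% of all tested genes. That call ended in 7 of 16 settings, among them without wild-type replicate 1 (0.43), 2 (0.39) or 3 (0.34) and without EWSR1-ERG replicate 1 (0.30) or 2 (0.38).

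The arginine methyltransferase gene prmt8b, whose mammalian ortholog is brain-enriched, stood at 19.4, 14.1 and 12.6 CPM in wild-type and at 7.16, 11.5 and 10.2 CPM with EWSR1-ERG. It fell by 0.68 on the log2 scale (SE 0.209, edgeR adjusted p = 0.0380), again without overlap. The call ended in 7 of 16 settings, among them without wild-type replicate 1 (-0.47) or 2 (-0.74) and without EWSR1-ERG replicate 1 (-0.53) or 3 (-0.74). The gene prmt1, which encodes the main methyltransferase of FET proteins in mammalian cells, had 0.19 (SE 0.105, adjusted p = 0.256). Its groups did not overlap, at 149 to 169 CPM against 171 to 195 CPM, as was so for 35.1% of all tested genes. For tnpo1, with only 160 counts over all 6 pools, the value was -0.45 (SE 0.311, adjusted p = 0.369).

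A list of 34 prion-like and heterogeneous nuclear ribonucleoprotein genes was mixed, and only some encode proteins with low-complexity regions like those of the FET family. Of the 34, 1 fell and 33 did not pass (median 0.04), beside 9.87% lower over all tested genes. The gene that fell was hnrpkl, at 57.7 ± 0.871 CPM in wild-type and 46.0 ± 3.25 CPM with EWSR1-ERG (SD, n = 3 per group; log2 fold change -0.32, SE 0.105, edgeR adjusted p = 0.0492). That call ended in 13 of 16 settings, among them DESeq2 (adjusted p = 0.166), limma-voom (adjusted p = 0.0504) and the omission of wild-type replicate 1 (-0.33), 2 (-0.33) or 3 (-0.30) or of EWSR1-ERG replicate 2 (-0.26) or 3 (-0.36). The gene tardbp, which encodes TDP-43, an RNA-binding protein of the same broad class, had 0.05 (SE 0.102, adjusted p = 0.816).

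Of 9 paraspeckle genes, 20 U1 and splicing genes and 4 microprocessor genes, none passed by edgeR, DESeq2 or limma-voom. An unadjusted p under 0.05 was found for 0, 0 and 1 of them, beside 30.1% of all tested genes. Without EWSR1-ERG replicate 1 the microprocessor gene ddx5, which encodes an RNA helicase, passed (log2 fold change -0.37, edgeR adjusted p = 0.0458); with all 6 pools it had -0.31 (adjusted p = 0.0844). The paraspeckle gene sfpq had 0.0038 (SE 0.119, adjusted p = 0.989). The gene snrnp70, which encodes a core protein of the U1 particle, had -0.11 (SE 0.112, adjusted p = 0.566). Of 29 genes of TFIID, RNA polymerase II and the CBP/p300 coactivators 1 was called, beside 17.3% of all tested genes. The polymerase subunit gene polr2eb rose, with means of 26.3 ± 3.40 and 34.9 ± 3.42 CPM (SD, n = 3 per group; 0.41, SE 0.132, edgeR adjusted p = 0.0462). Its call ended in 10 of 16 settings, among them each of the 6 omissions of a pool (0.32 to 0.51). The summed level of the microprocessor list was lower, at 589 to 622 CPM in wild-type and 501 to 557 CPM with EWSR1-ERG. It was higher for the SMN complex (125 to 131 and 150 to 165 CPM) and for methylation and import (357 to 390 and 414 to 419 CPM). Sums of the other partner lists overlapped between the groups. Such sums weigh abundant genes most, as ddx5 with means of 446 and 361 CPM, and were not tested.

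**Figure D4:**
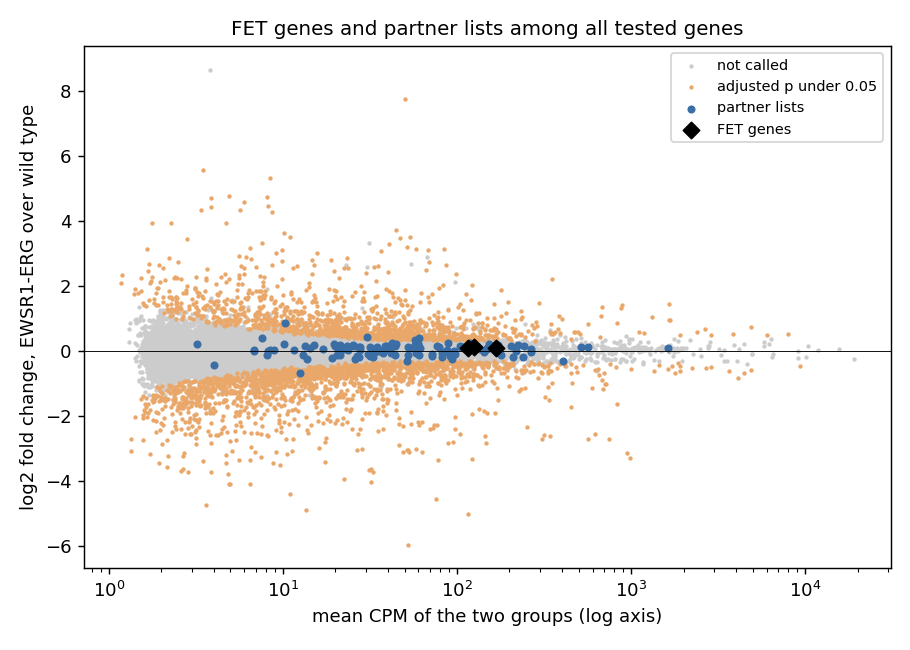
Log2 fold change of all 17557 tested genes against the mean CPM of both groups (log axis), with ewsr1a, ewsr1b and TAF15 as black diamonds and the 114 partner genes in blue. The diamonds lie between 0.07 and 0.13, inside the band of genes that were not called at their level.

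Markers of several cell types did move between the same pools, and these values stand beside the FET levels. Over all tested genes 7.45% were called higher and 9.87% lower, with a median log2 fold change of 0.00453. Of 17 pan-neuronal genes 11 fell (median -0.62), with a summed level of 1727 to 2211 CPM in wild-type and 1086 to 1533 CPM with EWSR1-ERG. Among those with the smallest p were the synaptophysin gene sypb, from 164 ± 7.30 to 72.1 ± 8.65 CPM (SD, n = 3 per group; edgeR adjusted p = 6.06e-06), and the syntaxin-binding gene stxbp1b, from 6.06 ± 1.07 to 1.59 ± 0.537 CPM (adjusted p = 0.000735). The 6 genes not called included elavl3 (log2 fold change -0.05, edgeR adjusted p = 0.914), elavl4 (-0.25, adjusted p = 0.586) and rbfox1 (-0.24, adjusted p = 0.359). Without wild-type replicate 1 the number of pan-neuronal genes called was 5 and without wild-type replicate 2 it was 6. All 14 tested photoreceptor genes, of 15 matched, fell (median -2.72), from a summed 7807 to 8283 CPM to 1073 to 1235 CPM.

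Of 13 tested of 16 matched macrophage and neutrophil genes 11 rose (median 1.88), from a summed 112 to 132 CPM to 328 to 533 CPM. The macrophage gene mfap4 was among them, at 4.85 ± 1.14 and 24.7 ± 4.58 CPM (SD, n = 3 per group; edgeR adjusted p = 3.31e-06). The 2 not called were csf1ra (log2 fold change 0.99, edgeR adjusted p = 0.0595) and mmp13a (3.30, adjusted p = 0.152). The level of mmp13a, which is part of the sum, was 5.74 ± 1.27 CPM in wild-type and 57.0 ± 64.0 CPM with EWSR1-ERG (SD, n = 3 per group). Of 18 tested proliferation genes 0 were called by edgeR, DESeq2 or limma-voom, where edgeR called 17.3% of all tested genes. An unadjusted p under 0.05 was found for 0 of the 18, beside 30.1% of all tested genes. The 18 had a median of 0.08 and a summed level of 1059 to 1132 CPM in wild-type and 1015 to 1227 CPM with EWSR1-ERG. No matched marker in these lists was at 0 counts. The part of these shifts in the FET values was not tested.

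**Figure D5:**
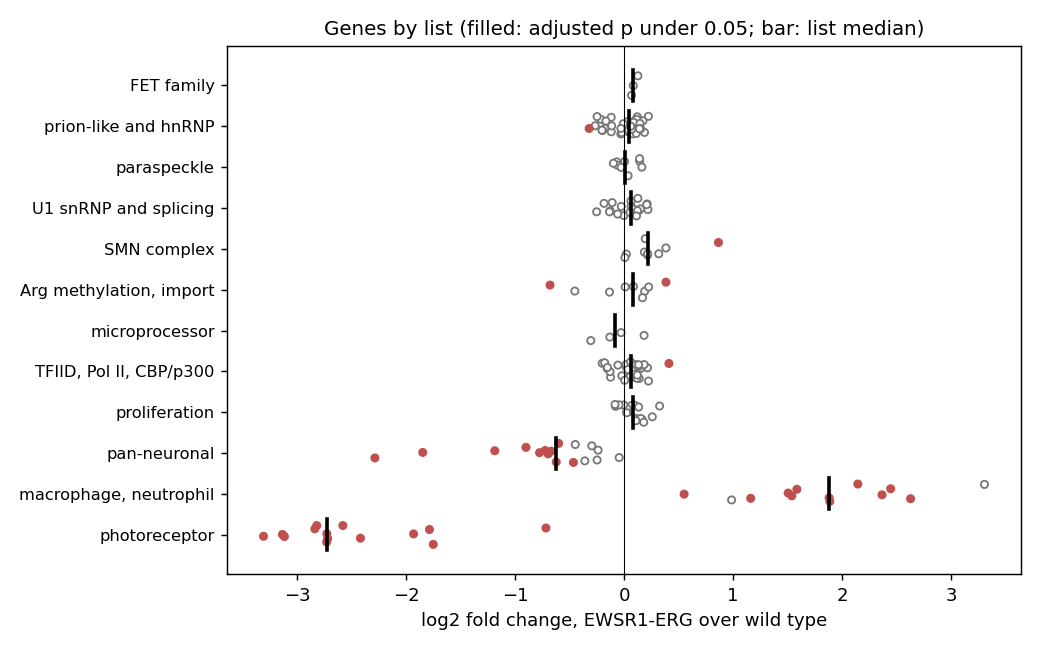
Log2 fold change of ewsr1a, ewsr1b and TAF15 (top row) and of every tested gene of the partner lists and the cell type lists, 1 row per list, with called genes filled and the median as a bar. These 3 genes sit between 0.07 and 0.13, near the partner and proliferation genes, while the pan-neuronal (median -0.62), photoreceptor (median -2.72) and macrophage and neutrophil (median 1.88) lists are displaced.

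The genes whose levels followed ewsr1a, ewsr1b and TAF15 most closely over the 6 pools were found by Pearson's r of log2 CPM among 10360 genes with a mean of at least 10 CPM, as a description of 6 points that share their libraries. For ewsr1a these were ptbp3 (r = 0.939), tmem47 (0.925) and mcm5 (0.919), and for ewsr1b they were morf4l1 (0.994), zgc:56095 (0.974) and cstf2 (0.968). For TAF15 they were hrasa (0.998), metrnl (0.997) and psat1 (0.992). Of the genes named here only psat1 was itself called, higher with EWSR1-ERG (log2 fold change 0.77, edgeR adjusted p = 0.0188). None of ewsr1a, ewsr1b and TAF15 was among the nearest 3 genes of another. An r of at least 0.9 was reached by 0.116% of the genes for ewsr1a, 0.454% for ewsr1b and 4.30% for TAF15.

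The 3 genes lie on 3 chromosomes. The protein-coding neighbours on both sides, by gene order in the RefSeq annotation of GRCz12tu, were matched for all but one side of TAF15. None of these 5 genes was called by edgeR, beside 17.3% of all tested genes. Beside ewsr1a stood osbp2a (log2 fold change -0.59, SE 0.232, adjusted p = 0.101) and atp6v0a2a (-0.41, SE 0.223, adjusted p = 0.236). Beside ewsr1b, gas2l1 had -0.20 (SE 0.370, adjusted p = 0.771) and rhbdd3 had 0.09 (SE 0.255, adjusted p = 0.867). These had only 86 and 191 counts over all pools. Beside TAF15, mmp28 had 0.0038 (SE 0.236, adjusted p = 0.995).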

How the data were processed

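The deposited files hold, for each of 6 libraries, expected counts per Ensembl gene. Every gene value was whole, so rounding changed nothing, and the last line, a size factor that equals the one DESeq2 recomputes, was not applied to the counts. Bowtie2, SAMtools, DESeq and the Zv9 build are listed per the submitters' processing notes, with annotation, counting tool, versions and strandedness not given in the sources used here. The 2 lines of each file without a gene were dropped.

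Genes were kept by edgeR's filterByExpr (minimum count 10, minimum total 15) and tested with edgeR 4.0.16 in R 4.3.3 (TMM scaling, robust quasi-likelihood F test, no covariate, Benjamini-Hochberg adjustment, threshold 0.05). The SE is the absolute log2 fold change over the root of F, and the 95% interval uses the t quantile at the fit's total degrees of freedom. Both are approximations. How often the interval held the true value was checked only on counts simulated from the fit's own means and dispersions. Such counts follow the fitted model, so this check cannot show how often the interval holds for real pools. DESeq2 1.42.0, limma 3.58.1, other scalings and filters, a replicate block and the omission of each pool were alternatives. Ratios and sums were compared by two-sided exact permutation over pools. Before the TMM adjustment, library totals of 4771843 to 13338802 counts make 1 count worth 0.0750 to 0.210 CPM. The CPM printed here use totals adjusted by TMM factors of 0.932 to 1.05, so 1 count is worth a somewhat different amount on that scale. No pools of a group agreed within sampling noise. The mean chi-square per gene was 1.66 for wild-type replicates 1 and 2, the most alike pair. It was 3.05 to 9.38 for the other pairs within a group.

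The members, the gene lists and the tests were chosen with earlier results of these data known. List entries (206) were matched to 184 genes by symbol, the gene name table or RefSeq synonyms; 18 were not matched, and hnrnpa0l was left out because the name table gives its ID to another gene. Named genes are the 3 members, the 3 genes with the highest r for each, up to 3 called genes per list with the smallest p (not all printed for cell type lists), and tardbp, prmt1, tnpo1, snrnp70 and sfpq. Neighbouring genes, ddx5 and the cell type genes elavl3, elavl4, rbfox1, csf1ra and mmp13a, which were not called, were added to this choice after the data were seen. A further gene, and sums that need it, are not reported here.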

Additional observations from a re-analysis of the deposited data

How the results depend on the processing

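Under 16 alternative settings none of ewsr1a, ewsr1b and TAF15 was called, and ewsr1b and TAF15 kept a positive log2 fold change in each. With single pools left out, the values ran from -0.022 to 0.12 for ewsr1a, 0.05 to 0.11 for ewsr1b and 0.10 to 0.17 for TAF15. The difference of the log2 paralog ratio then ran from -0.069 to 0.052, that of the log2 summed pair from 0.0064 to 0.11, and the counts over all genes from 645 to 1334 higher and from 981 to 1669 lower. The gene sfpq changed sign with upper-quartile factors (-0.0030), limma-voom (-0.0034) and the replicate block (-0.00040), and ran from -0.10 to 0.080 with single pools left out; tardbp ran from -0.0093 to 0.091. The cause was not tested. List medians then ran from 0.0084 to 0.066 for prion-like genes, 0.13 to 0.29 for the SMN complex, 0.039 to 0.091 for all partners and 0.044 to 0.14 for proliferation. The deposited size factors, an alternative chosen after seeing the data, changed no FET call. The labels number pools 1 to 3 in both groups. Deviations of same-numbered pools correlated at -0.12, 0.09 and -0.02, and those of differently numbered pools at -0.20 to 0.17. The numbers are therefore not taken to pair the pools, and a pairing under other numbers was not tested. With the replicate block the log2 fold changes were 0.06, 0.08 and 0.13 for ewsr1a, ewsr1b and TAF15. In that setting 1067 genes were called higher and 1481 lower, and 2 of the partner genes were called. Depth limits the paralog share of a pool to an interval of several percentage points, and the embryo pools cannot resolve a change limited to some neurons.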
